A study of Mus musculus with 57 samples.

Results

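The 10 genes described here encode proteins that move anthracyclines such as doxorubicin (Doxo) across membranes or reduce them chemically. They were taken by symbol from a fixed list: the transporters Abcb1a, Abcb1b, Abcc1, Abcg2 and Abcb8, the carbonyl-reducing enzymes Cbr1, Cbr3 and Akr1a1, and the flavoenzymes Por and Xdh. All 10 were found in both gene tables, among the 25416 symbols that the tables share, and all 10 passed the low-count filter in both studies.

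Doxo enters cells by diffusion and by carriers, and ATP-binding cassette (ABC) pumps return it to the outside. In rodents P-glycoprotein is encoded by the neighbouring paralogs Abcb1a and Abcb1b, and endothelial cells of many organs carry it. Abcc1 encodes multidrug resistance-associated protein, which also exports glutathione conjugates, and Abcg2 encodes breast cancer resistance protein. Abcb8 encodes an ABC transporter of the mitochondrial inner membrane. Inside the cell, carbonyl and aldo-keto reductases use NADPH to turn the side-chain ketone of Doxo into the alcohol doxorubicinol, a metabolite long linked to cardiac toxicity. Por (cytochrome P450 reductase) and Xdh (xanthine dehydrogenase and oxidase, the last enzyme of purine breakdown) can instead hand a single electron to the quinone ring, giving a semiquinone that passes its electron to oxygen.

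Hearts of male C57BL6/J (B6) mice came from an acute and a chronic study, 57 hearts in all. In the acute study, mice were bought at 9 weeks of age, acclimated for at least 5 days, and given saline (Ctrl, n = 14), 1 intraperitoneal Doxo injection of 20 mg/kg (Doxo, n = 13), or the same Doxo dose with daily intraperitoneal nicotinamide mononucleotide (NMN, 180 mg/kg), an NAD+ precursor, begun 5 days ahead (Doxo-NMN, n = 13). NMN injections continued after Doxo, and hearts were collected 5 days after Doxo, 2 h after the last NMN injection. In the chronic study, mice aged 14 to 16 weeks received PBS (Ctrl, n = 5) or 5 Doxo injections of 4 mg/kg within 2 weeks, 20 mg/kg in total, with plain water (Doxo, n = 6) or water supplying NMN at 500 mg/kg per day, begun 5 days before the first injection (Doxo-NMN, n = 6), and hearts were collected at day 60. Only surviving mice could be sampled, and neither study had an NMN group without Doxo.

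Total counts per heart ran from 32409622 to 52102850 in the acute study and from 17769886 to 23862287 in the chronic study. Over these totals, 3 counts corresponded to 0.0576–0.0926 CPM (counts per 1000000 counts of the library) and 0.126–0.169 CPM. All other CPM use a scaled library total, as given under the data processing. Cardiomyocyte markers were abundant in every heart, with summed levels of 24948 to 72540 CPM in the acute study. The acute heart labelled Doxo replicate 6 stood apart from its group. On a scale that sets the Ctrl mean to 0 and the Doxo mean to 1 over the genes changed at least 1.5-fold, it lay at 0.0358. The rest of the Doxo group (12 hearts) ranged from 0.465 to 1.45 and the Ctrl hearts between -0.0391 and 0.0490. Its summed red-cell marker level was 338 CPM, against at most 3.85 CPM in the other Doxo hearts and 437–4311 CPM in Ctrl. It is kept below, and values without it are given beside the results. In the chronic study, Ctrl replicate 1 and Doxo replicate 2 stood apart from their groups for several of the 10 genes.

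For 4 of the genes, the stretch just before a RefSeq start is shown. In the acute hearts Abcb1b and Por rose most, Cbr1 fell, and its neighbour Cbr3 did not pass a test. Each stretch holds the bases before the RefSeq start (GRCm38.p6), with exons of the gene itself left out. It is written 5′ to 3′ on the strand of the gene, which is the plus strand in all 4. Capitals mark 4 motifs searched on both strands: TGACNNNGC (antioxidant response element core), GCGTG (xenobiotic response element core), CCAAT, and GGGCGG (GC box). The stretches are chr5:8797897-8798146 for Abcb1b, chr5:135688895-135689035 for Por, chr16:93607587-93607836 for Cbr1 and chr16:93682969-93683214 for Cbr3.
Abcb1b: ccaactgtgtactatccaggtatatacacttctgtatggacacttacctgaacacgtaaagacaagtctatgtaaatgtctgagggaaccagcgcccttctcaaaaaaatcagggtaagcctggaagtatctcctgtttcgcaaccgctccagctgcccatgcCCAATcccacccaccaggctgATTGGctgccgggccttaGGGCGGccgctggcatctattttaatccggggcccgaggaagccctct
Por: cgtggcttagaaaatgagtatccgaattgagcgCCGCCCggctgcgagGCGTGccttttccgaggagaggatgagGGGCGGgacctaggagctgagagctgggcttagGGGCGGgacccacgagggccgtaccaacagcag
Cbr1: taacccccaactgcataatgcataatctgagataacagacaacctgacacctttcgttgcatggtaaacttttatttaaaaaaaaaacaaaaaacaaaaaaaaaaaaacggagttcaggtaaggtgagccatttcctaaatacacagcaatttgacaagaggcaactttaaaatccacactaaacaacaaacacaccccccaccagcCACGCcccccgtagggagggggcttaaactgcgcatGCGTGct
Cbr3: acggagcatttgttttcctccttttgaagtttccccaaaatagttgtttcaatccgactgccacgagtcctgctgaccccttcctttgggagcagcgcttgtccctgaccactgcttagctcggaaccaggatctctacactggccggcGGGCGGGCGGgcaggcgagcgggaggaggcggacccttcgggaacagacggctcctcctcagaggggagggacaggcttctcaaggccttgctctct

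The windows searched held 250 bases before and 50 bases after each start, and 7 of the 10 genes had a window in the table used, 9 windows in all. The antioxidant response element core was present in 12.4% of all 32851 windows and in the window of 1 of the 7 genes, Abcb1a, where it lay 27 bases past the RefSeq start. That start is 92986 bases from the nearest start of Abcb1a in the gene models used here (GENCODE vM21), so the match lies upstream of the Abcb1a gene as placed below. GCGTG was present in 32.4% of all windows and in those of Abcg2, Cbr1 and Por. CCAAT was present in 37.4% of all windows and in those of Abcb1b, Abcg2 and Cbr1, and GGGCGG in 35.7% of all windows and in those of Abcb1b, Abcg2, Cbr3 and Por. The Abcb1b stretch carried a CCAAT box on each strand and a GC box, starting between positions -87 and -48, the Por stretch carried 3 GC boxes and 1 GCGTG, and the Cbr3 stretch carried a pair of overlapping GC boxes. The Por stretch lay inside the Por gene as placed below, which begins at chr5:135670033. It therefore precedes a RefSeq start but is not upstream of that gene. The Cbr1 stretch lay within an intron of longer non-coding Cbr1 transcripts, and the Abcb1b stretch overlapped an exon of the antisense gene Gm5106. These matches describe letters in a window and were not tested as binding sites.

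Compared per length in Ctrl hearts of the acute study, as RPKM (CPM per kilobase of exon), Akr1a1 had the highest level of the 10 at 48.2 ± 1.75 RPKM (SD, n = 14), above every other member in every heart. Abcb8 (18.1 ± 1.36 RPKM) and Xdh (14.8 ± 1.36 RPKM) followed, with ranges that overlapped, and then Por (10.8 ± 1.05 RPKM) and Cbr1 (8.22 ± 0.762 RPKM), whose ranges also overlapped. The plasma-membrane pumps were lower: Abcb1a reached 3.46 ± 0.651 RPKM, Abcg2 3.09 ± 0.290 RPKM, Abcc1 2.08 ± 0.176 RPKM and Abcb1b 1.04 ± 0.188 RPKM. Cbr3, at 1.41 ± 0.381 RPKM, overlapped with both Abcc1 and Abcb1b. In the chronic Ctrl hearts (n = 5) Akr1a1 was again highest at 64.8 ± 5.75 RPKM and Abcb1b lowest at 1.08 ± 0.154 RPKM, and only the steps from Akr1a1 to Abcb8, from Cbr1 to Abcb1a and from Abcb1a to Abcc1 separated neighbours without overlap.

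At 5 days after the single Doxo dose, 7 of the 10 genes rose and 1 fell (edgeR quasi-likelihood test, Benjamini-Hochberg adjusted p under 0.05 over 14240 genes). All 4 plasma-membrane pump genes, the flavoenzymes Por and Xdh, and Akr1a1 rose, Cbr1 fell, and Abcb8 and Cbr3 did not pass the test. Of all genes tested, 34.8% rose and 33.3% fell by the same rule, so a change in either direction was common in these hearts. At a cutoff of at least 1.5-fold, 6 of the 10 rose and 1 fell, against 14.7% and 15.4% of all genes, with Akr1a1 just under it at 1.48-fold. The median log2 fold change of the 10 was 0.73, beside -0.00 over all genes tested. These are levels in whole heart tissue, in which fewer cells of a type and less RNA per cell cannot be told apart.

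**Figure D1:**
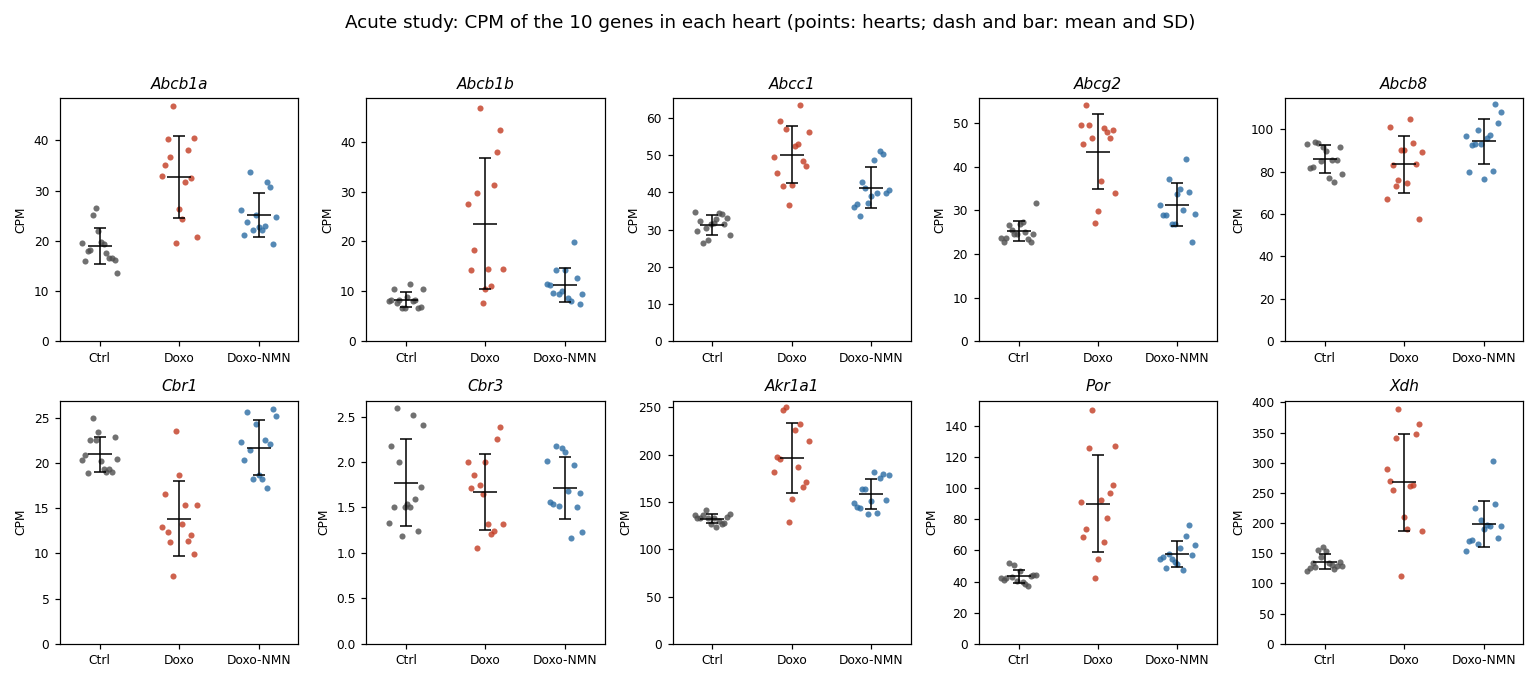
CPM of each of the 10 genes (vertical axes, linear, from 0) in each acute heart by group; points are hearts, and the dash and bar are the group mean and SD. Abcc1 separates all 13 Doxo hearts from all 14 Ctrl hearts, and Abcb8 and Cbr3 overlap throughout. Cbr1 falls in Doxo and is higher again in Doxo-NMN, where 4 of 13 hearts lie below the lowest Ctrl heart.

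Among the pumps, Abcb1b (chr5:8798147-8866315, plus strand) changed most. Its lowest, median and highest levels were 6.60, 8.19 and 11.4 CPM in Ctrl hearts and 7.68, 18.3 and 46.7 CPM in Doxo hearts. The Doxo group spread widely, and 10 of its 13 hearts lay above the highest Ctrl heart. The log2 fold change was 1.499 (SE 0.21, adjusted p = 7.76e-08 by edgeR), a 2.83-fold higher level, and 1.58 without Doxo replicate 6. Its neighbour Abcb1a (chr5:8660077-8748575, plus strand), the other P-glycoprotein gene, ran from 13.5 through a median of 18.1 to 26.5 CPM in Ctrl and from 19.5 through 32.9 to 46.8 CPM in Doxo. The groups overlapped, with 9 of 13 Doxo hearts above all Ctrl hearts, and the log2 fold change was 0.79 (SE 0.11, adjusted p = 1.41e-07 by edgeR). The paralogs share sequence: 295 of the 5324 stretches of 150 bases in Abcb1a transcripts, the length of a read, also occur in Abcb1b transcripts, so counts from those stretches cannot be assigned to either gene with certainty. Exons of Abcb1a also overlap an opposite-strand gene, Gm42686, over 553 bases, and whether the counting used strand is not given in the sources used here.

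Abcc1 (chr16:14361558-14475737, plus strand) was the only member whose Ctrl and Doxo hearts did not overlap. How many of all genes tested separated these groups was not counted, so this describes the Abcc1 values only. Levels were 26.4, 31.7 and 34.8 CPM (lowest, median, highest) in Ctrl and 36.7, 49.5 and 63.5 CPM in Doxo, so that even Doxo replicate 6, the lowest of its group, lay above every Ctrl heart. The log2 fold change was 0.68 (SE 0.07, adjusted p = 3.46e-10 by edgeR), or 1.60-fold. Abcg2 (chr6:58584523-58695676, plus strand) rose by a similar factor, from 22.7, 24.6 and 31.7 CPM in Ctrl to 27.1, 46.6 and 54.1 CPM in Doxo. The Abcg2 log2 fold change was 0.78 (SE 0.09, adjusted p = 1.38e-09 by edgeR), and 11 of 13 Doxo hearts lay above all Ctrl hearts. The mitochondrial transporter gene Abcb8 (chr5:24393663-24410054, plus strand) behaved otherwise, with 75.2, 85.6 and 94.1 CPM in Ctrl and 57.7, 83.4 and 105 CPM in Doxo. Doxo hearts spread to both sides of the Ctrl range, 4 below it and 2 above it, and the log2 difference was -0.04 (95% interval -0.18 to 0.09, adjusted p = 0.566 by edgeR).

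The carbonyl-reducing enzymes went in different directions. Cbr1 (chr16:93605853-93610505, plus strand), the main carbonyl reductase acting on anthracyclines, was the only member to fall. Its levels were 18.9, 20.4 and 24.97 CPM in Ctrl and 7.47, 12.9 and 23.5 CPM in Doxo, and 12 of 13 Doxo hearts lay below the lowest Ctrl heart, the exception being replicate 6. The log2 fold change was -0.60 (SE 0.10, adjusted p = 4.74e-06 by edgeR), a ratio of 0.661, and -0.68 without that heart. Cbr3 (chr16:93683215-93690990, plus strand), which lies downstream of Cbr1 on the same strand, was sparse, with 30 to 112 counts per acute heart. Its levels were 1.19, 1.56 and 2.60 CPM in Ctrl and 1.05, 1.71 and 2.39 CPM in Doxo, which overlapped fully, and the log2 difference was -0.08 (95% interval -0.36 to 0.19, adjusted p = 0.599 by edgeR). Akr1a1 (chr4:116636510-116651680, minus strand), aldehyde reductase, rose from 124, 133 and 141 CPM in Ctrl to 129, 195 and 251 CPM in Doxo. All Doxo hearts but replicate 6 exceeded the highest Ctrl heart, and the log2 fold change was 0.57 (SE 0.07, adjusted p = 1.13e-08 by edgeR).

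Both flavoenzyme genes rose by about 1 log2 unit. Por (chr5:135670033-135735326, plus strand) had 36.9, 42.8 and 51.9 CPM in Ctrl and 42.4, 90.7 and 150.5 CPM in Doxo, with 12 of 13 Doxo hearts above all Ctrl hearts. The log2 fold change was 1.06 (SE 0.12, adjusted p = 1.87e-09 by edgeR), or 2.08-fold. Xdh (chr17:73883895-73950196, minus strand) had 120.3, 133 and 159.6 CPM in Ctrl and 111.6, 262 and 389 CPM in Doxo. Here too 12 of 13 Doxo hearts lay above the Ctrl range, while replicate 6 lay below it, and the log2 fold change was 0.98 (SE 0.12, adjusted p = 7.41e-09 by edgeR). Without replicate 6 it was 1.05 for Xdh, 1.12 for Por, 0.61 for Akr1a1, 0.83 for Abcg2 and 0.71 for Abcc1, and the same 8 genes passed the test in the same directions.

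The 7 genes that rose were also counted heart by heart. They were chosen by their rise in these same hearts, so high counts in Doxo hearts are partly built in. In 8 of 13 Doxo hearts all 7 exceeded the highest Ctrl value, and the 12 Doxo hearts other than replicate 6 had at least 4 of the 7 above it. Replicate 6 had 1, Abcc1, and was the lowest Doxo heart for each of the 7 and the highest for Cbr1.

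**Figure D2:**
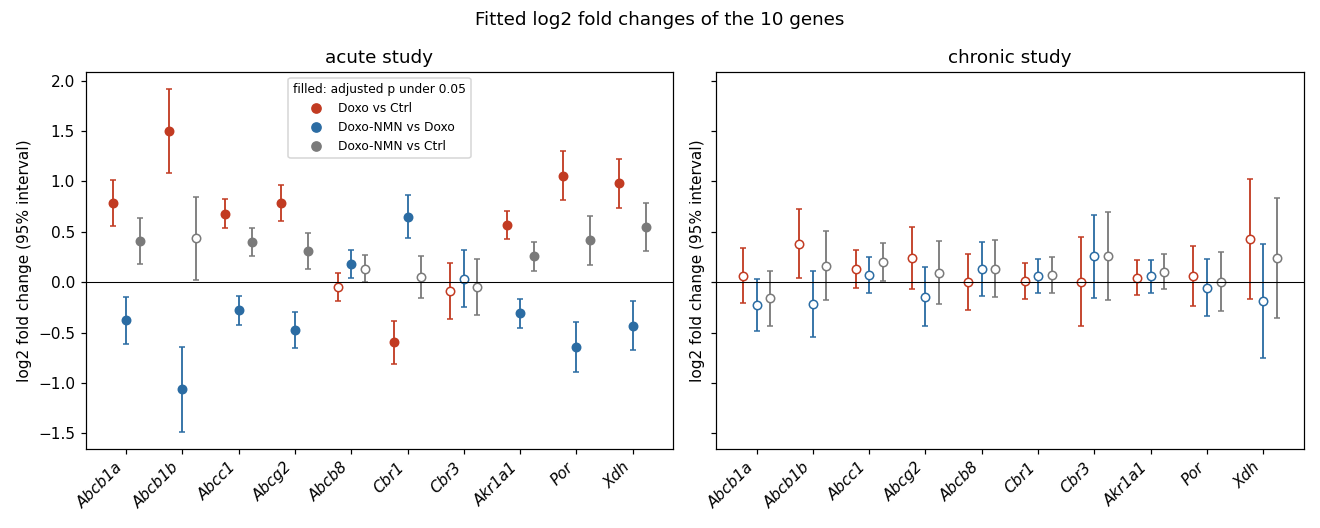
Log2 fold change (vertical axis) of each gene with its 95% interval, for the 3 comparisons of the acute (left) and the chronic study (right). Filled points passed at adjusted p under 0.05 by edgeR. In the acute study 7 genes lie above 0 for Doxo vs Ctrl and below 0 for Doxo-NMN vs Doxo, Cbr1 does the opposite, and no chronic point is filled.

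Doxo-NMN hearts were then compared with Doxo hearts, to ask what differed with NMN given before and after the Doxo dose, up to the day of collection. By edgeR at adjusted p under 0.05, 7 of the 10 genes were lower in Doxo-NMN and 2 were higher, against 27.4% lower and 25.7% higher among all genes tested. The 7 were those that rose with Doxo, and Cbr1, which fell with Doxo, was higher. Both comparisons use the same Doxo hearts, so opposite signs are partly built in. At least 1.5-fold, 2 genes fell (Abcb1b and Por) and 1 rose (Cbr1), against 8.88% and 8.17% of all genes. The median log2 difference of the 10 was -0.34, beside -0.00 over all genes.

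Abcb1b was again the gene with the largest difference. Its levels in the 13 Doxo-NMN hearts were 7.45, 10.01 and 19.9 CPM (lowest, median, highest) with 5 hearts above every Ctrl heart, and the log2 difference from Doxo was -1.06 (SE 0.21, adjusted p = 7.69e-05 by edgeR). Abcb1a reached 19.4, 23.8 and 33.7 CPM, a log2 difference of -0.38 (SE 0.11, adjusted p = 0.00519 by edgeR). Abcg2 reached 22.8, 30.0 and 41.6 CPM (log2 difference -0.47, SE 0.09, adjusted p = 4.4e-05 by edgeR). Abcc1 had 33.7, 39.95 and 51.1 CPM, and 12 of 13 Doxo-NMN hearts stayed above every Ctrl heart. Its log2 difference from Doxo was -0.28 (SE 0.07, adjusted p = 0.00127 by edgeR). Abcb8, at 76.3, 95.9 and 112 CPM, was slightly higher than in Doxo (0.18, SE 0.07, adjusted p = 0.0282 by edgeR), a call that was lost when any of 4 single hearts was left out (Doxo replicate 1 or 12, Doxo-NMN replicate 11 or 13).

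Of the enzymes, Cbr1 showed 17.3, 22.1 and 25.996 CPM in Doxo-NMN, passing the Ctrl range at both ends, with 4 of 13 hearts below the lowest Ctrl heart. Cbr1 was 1.57-fold higher than in Doxo (log2 difference 0.65, SE 0.11, adjusted p = 7.83e-06 by edgeR). Por had 47.6, 55.7 and 76.1 CPM and differed from Doxo by -0.64 (SE 0.12, adjusted p = 4.99e-05 by edgeR), a ratio of 0.641. Xdh had 154, 195 and 303 CPM (log2 difference -0.43, SE 0.12, adjusted p = 0.00297 by edgeR), and Akr1a1 138, 152 and 182 CPM (log2 difference -0.31, SE 0.07, adjusted p = 0.000484 by edgeR). Cbr3 had 1.17, 1.65 and 2.18 CPM, and its log2 difference was 0.03 with an interval of -0.25 to 0.32.

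Set against Ctrl, Doxo-NMN hearts still had 6 of the 10 genes higher and none lower (edgeR, adjusted p under 0.05), beside 15% and 11.1% of all genes, and none of the 10 reached 1.5-fold, beside 3.31% and 3.79%. The log2 differences were 0.55 for Xdh (adjusted p = 0.000743), 0.42 for Por (0.00892), 0.41 for Abcb1a (0.00633), 0.40 for Abcc1 (6.86e-05), 0.31 for Abcg2 (0.00758) and 0.26 for Akr1a1 (0.00628). Abcb1b, the gene with the largest Doxo effect, was at 0.44 with an interval of 0.02 to 0.85 and did not pass (adjusted p = 0.111). Cbr1 differed from Ctrl by 0.05 with an interval of -0.16 to 0.26, Abcb8 by 0.13 (adjusted p = 0.142) and Cbr3 by -0.05 (adjusted p = 0.814). Fitted with only the compared groups, Abcb1b passed (0.43, adjusted p = 0.00637 by edgeR), as did Abcb8 (adjusted p = 0.0485), which also passed with limma voom (0.0149). Of the 6 calls, only that of Abcc1 held within hearts low in the atrial marker Myl4 (Abcb1a then at 0.24 with adjusted p = 0.368, Abcg2 at 0.34 with 0.0884, Akr1a1 at 0.27 with 0.108, Por at 0.42 with 0.152 and Xdh at 0.52 with 0.0849). Within high-Myl4 hearts Abcb1a and Xdh held, while Abcc1 (0.28, adjusted p = 0.0506), Abcg2 (0.31, 0.123), Akr1a1 (0.19, 0.0583) and Por (0.32, 0.121) did not pass. Counted by heart, 3 of 13 Doxo-NMN hearts had all 7 Doxo-raised genes above the highest Ctrl value, and the median heart had 4 of the 7. Those 7 had been chosen against the same Ctrl hearts.

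Marker genes of heart cell types moved in the same hearts. All 5 red-cell markers fell with Doxo, from a summed 437–4311 CPM in Ctrl hearts to 1.19–338 CPM with Doxo alone, and 0.209–2.81 CPM with NMN added. All 4 neutrophil markers rose, from 1.59–4.99 CPM to 2.69–258 CPM with Doxo alone, and 4.66–28.6 CPM with NMN added. Of 8 endothelial markers, which bear on Abcb1a and Abcg2 as genes of vessel cells, 2 rose and 2 fell with Doxo. In Doxo-NMN hearts 0 rose and 3 fell relative to Doxo, and 0 rose and 3 fell relative to Ctrl. The sums ran over 734–944 CPM without Doxo (mean 809), 529–940 CPM with Doxo (mean 758) and 550–839 CPM with Doxo plus NMN (mean 650). Of 7 cardiomyocyte markers 2 rose and 4 fell, with sums of 51771–64172, 24948–67955 and 32268–72540 CPM. Atrial markers varied within each group, reaching 3726 CPM (Ctrl), 1289 CPM (Doxo) and 2682 CPM (Doxo-NMN). They were also uneven between groups, with mean sums of 1442, 354 and 501 CPM and medians far lower in both Doxo groups than in Ctrl. None of the 4 atrial markers passed a test in any acute comparison. At the limit of 100 CPM of Myl4, high hearts numbered 8 of 14 (Ctrl), 5 of 13 (Doxo) and 4 of 13 (Doxo-NMN). The low-Myl4 hearts numbered 6, 8 and 9. No marker list held a gene at 0 in all hearts of a group, and the part of these markers in the results above was not tested, except that the counts at 1.5-fold were also taken within hearts low or high in the atrial marker Myl4 (7 and 7 of 10 genes for Doxo vs Ctrl, beside 4282 and 4208 of all genes, and 3 and 4 for Doxo-NMN vs Doxo, beside 2319 and 2374). Within the low-Myl4 hearts, the Doxo-NMN vs Doxo differences of Abcb1a and Xdh did not pass (adjusted p = 0.0882 and 0.156 by edgeR), and that of Abcb8 passed in neither low-Myl4 (0.0793) nor high-Myl4 hearts (0.274).

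The proportions within the paralog pairs were compared because a ratio inside a heart does not depend on library size. Abcb1b made up 19.9, 30.5 and 43.4% (lowest, median, highest) of the Abcb1a plus Abcb1b counts in acute Ctrl hearts and 25.9, 41.3 and 53.9% in Doxo hearts. The groups overlapped, and the mean share was 8.51 percentage points higher in Doxo (two-sided permutation test, p = 0.0114, adjusted over 12 tests 0.026). In Doxo-NMN hearts the share was 25.8, 29.3 and 38.7%, -8.81 points relative to Doxo (permutation p = 0.0075, adjusted 0.0225) and -0.307 points relative to Ctrl (permutation p = 0.88). Cbr3 made up 5.01, 7.31 and 11.7% of the Cbr1 plus Cbr3 counts in Ctrl, 6.53, 9.63 and 19.3% in Doxo, and 4.67, 7.67 and 10.2% in Doxo-NMN. The Doxo mean was 3.65 points above Ctrl (permutation p = 0.00618, adjusted 0.0225) and the Doxo-NMN mean differed from Doxo by -3.99 points (permutation p = 0.00362, adjusted 0.0225), while the Cbr3 level itself did not pass a test in either comparison.

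**Figure D3:**
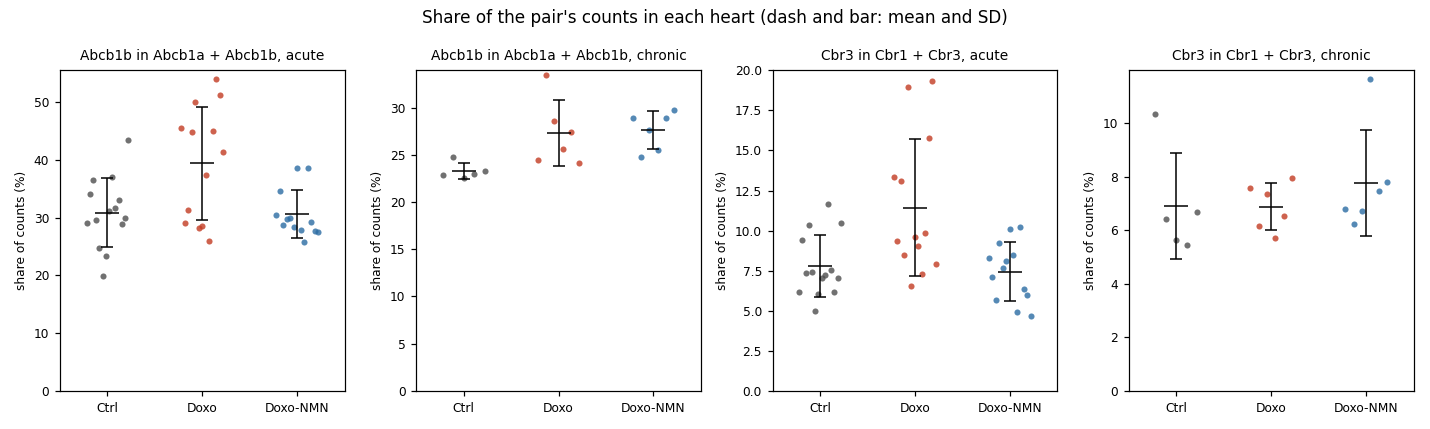
Share in percent (vertical axes) of Abcb1b in Abcb1a plus Abcb1b counts, and of Cbr3 in Cbr1 plus Cbr3 counts, in each heart of both studies; points are hearts, and the dash and bar are the group mean and SD. The acute Doxo hearts reach 53.9% and 19.3%, above the highest Ctrl hearts at 43.4% and 11.7%, but the groups overlap.

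In the chronic study, none of the 10 genes passed in any comparison by edgeR at adjusted p under 0.05. Among all 14960 genes tested, 0.0535% were higher and 0.00668% lower in Doxo than in Ctrl, 0% and 0% differed between Doxo-NMN and Doxo, and 0.0401% were higher and 0% lower in Doxo-NMN than in Ctrl. By other tools run on the same counts, DESeq2 and limma voom, the count was also 0 of the 10 in each comparison. At an unadjusted p under 0.05, 1 of the 10 (Abcb1b) differed between Doxo and Ctrl, 0 between Doxo-NMN and Doxo and 1 (Abcc1) between Doxo-NMN and Ctrl, beside 1174, 441 and 707 of all genes. The median log2 difference of the 10 was 0.06 for Doxo vs Ctrl and 0.00 for Doxo-NMN vs Doxo.

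Abcb1b levels in the 5 chronic Ctrl hearts were 10.6, 9.06, 7.85, 8.19 and 7.47 CPM (replicates 1 to 5), and the Doxo hearts showed 8.92, 10.3 and 16.7 CPM (lowest, median, highest). The ranges overlapped, and the log2 difference was 0.38 (SE 0.17, 95% interval 0.04 to 0.73, adjusted p = 0.612 by edgeR), falling to 0.24 without Doxo replicate 2. Xdh had 196.8, 123.3, 129.6, 137.3 and 99.3 CPM in Ctrl replicates 1 to 5 and 113.7, 136.9 and 427.5 CPM in Doxo, where the highest value was that of replicate 2. Its log2 difference of 0.43 (interval -0.17 to 1.02, adjusted p = 0.716 by edgeR) became -0.01 without that heart and 0.59 without Ctrl replicate 1. Por stood at 56.1, 60.8, 66.0, 76.5 and 77.4 CPM in Ctrl and at 55.1, 63.9 and 104 CPM in Doxo, and Doxo replicate 2 was again the highest. Its log2 difference was 0.06 (interval -0.24 to 0.35).

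The other pumps also overlapped between the chronic groups. Abcb1a was at 35.7, 27.5, 26.9, 27.4 and 24.6 CPM in Ctrl and 24.2, 28.7 and 35.7 CPM in Doxo, a log2 difference of 0.06 (interval -0.21 to 0.34). Abcc1 was at 35.1, 46.6, 40.998, 35.3 and 44.2 CPM in Ctrl and 39.2, 43.8 and 51.9 CPM in Doxo (0.13, interval -0.06 to 0.32). Abcg2 was at 26.6, 18.4, 19.7, 18.9 and 19.6 CPM in Ctrl and 20.5, 22.95 and 34.1 CPM in Doxo (0.24, interval -0.07 to 0.55), and Ctrl replicate 1 and Doxo replicate 2 were each the highest of their group. For Abcb8, Ctrl replicate 1 was low, at 60.9 CPM beside 92.1, 104.8, 101.9 and 99.0 CPM, and Doxo hearts held 81.9, 92.7 and 101 CPM (0.00, interval -0.28 to 0.28).

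The carbonyl-reducing enzymes had log2 differences of 0.01 to 0.05. Cbr1 was at 30.2, 24.02, 30.8, 35.1 and 29.2 CPM in chronic Ctrl hearts and at 28.3, 30.4 and 31.5 CPM in Doxo, and its log2 difference of 0.01 had an interval of -0.17 to 0.19. Akr1a1 was at 159.8, 166.0, 191.3, 196.6 and 177.1 CPM in Ctrl and 170.6, 181 and 209 CPM in Doxo (0.05, interval -0.12 to 0.22). Cbr3 was at 3.49, 1.65, 1.84, 2.02 and 2.09 CPM in Ctrl and 1.86, 2.19 and 2.65 CPM in Doxo (0.01, interval -0.44 to 0.45). In the chronic Doxo-NMN hearts the median levels were 9.27 CPM for Abcb1b, 23.8 for Abcb1a, 45.9 for Abcc1, 21.4 for Abcg2, 107 for Abcb8, 30.9 for Cbr1, 2.38 for Cbr3, 189 for Akr1a1, 68.9 for Por and 151 for Xdh. The log2 differences from chronic Doxo lay between -0.22 and 0.26, and those from chronic Ctrl between -0.16 and 0.26, at adjusted p of 0.999 throughout by edgeR.

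**Figure D4:**
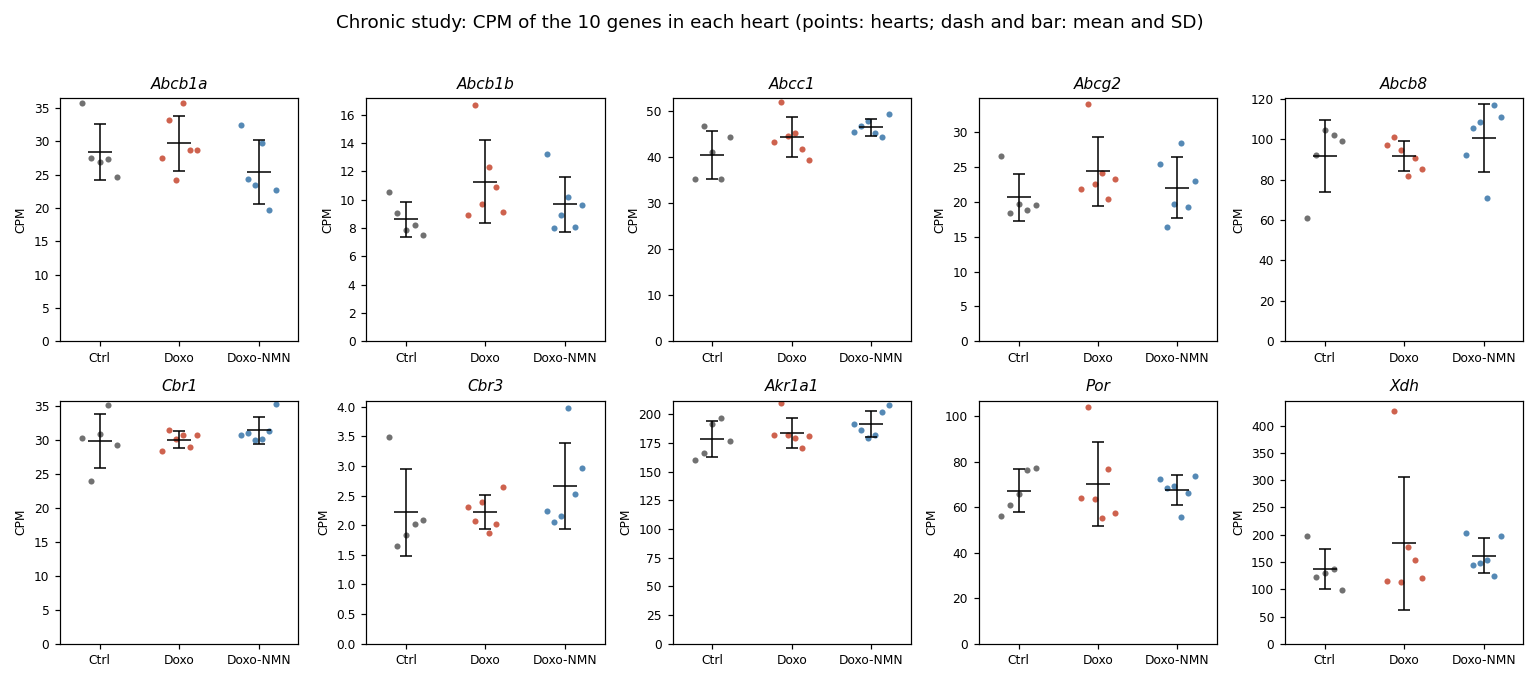
CPM of each of the 10 genes (vertical axes, linear, from 0) in each chronic heart by group; points are hearts, and the dash and bar are the group mean and SD. The groups overlap for all 10 genes, and 1 Doxo heart reaches 427.5 CPM of Xdh and 104 CPM of Por.

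The share of Abcb1b in its pair was 22.9, 24.8, 22.6, 23.02 and 23.3% in chronic Ctrl replicates 1 to 5, and 24.2, 26.6 and 33.5% in Doxo. The Doxo mean was 3.99 points higher (exact permutation test, p = 0.013, adjusted 0.026), and leaving out Ctrl replicate 1, 3, 4 or 5 took the adjusted exact p to 0.0571. The Doxo-NMN hearts, at 24.8, 28.3 and 29.8%, had a mean 4.28 points above Ctrl (exact permutation p = 0.00433, adjusted 0.0225), and did not differ detectably from Doxo (0.292 points, exact permutation p = 0.848). For Cbr3 the chronic share differences were -0.0304, 0.897 and 0.867 points when Doxo was set against Ctrl, and Doxo-NMN against Doxo or Ctrl, with exact permutation p of 0.952, 0.398 and 0.524.

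Whether the Doxo effect differed between the regimens was tested in 1 fit that joined the studies and left out the Doxo-NMN hearts. The effect was more positive in the acute study for 6 of the 10 genes and more negative for 1 (edgeR interaction term, adjusted p under 0.05 over 14965 genes), against 11% and 8.33% of all genes. The differences, acute minus chronic on the log2 scale, were 1.11 for Abcb1b (SE 0.38, adjusted p = 0.0365), 0.99 for Por (SE 0.24, 0.00695), 0.72 for Abcb1a (SE 0.21, 0.0159), 0.55 for Abcc1 (SE 0.13, 0.00552), 0.54 for Abcg2 (SE 0.17, 0.0237), 0.52 for Akr1a1 (SE 0.13, 0.00804) and -0.61 for Cbr1 (SE 0.19, 0.0255). The Xdh difference of 0.55 did not pass (interval -0.07 to 1.16, adjusted p = 0.191), and 1 chronic Doxo heart carried most of the chronic Xdh value. Abcb8 differed by -0.05 (adjusted p = 0.82) and Cbr3 by -0.09 (adjusted p = 0.836). Mouse age, supplier, dosing, interval to sampling and laboratory also differed between the studies and cannot be told apart from the regimen.

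Counts of related genes that rose and fell are to be read beside the 34.8% and 33.3% of all genes that did so with acute Doxo. Of 10 other ABC transporter genes tested, 3 rose and 5 fell with acute Doxo, with a median log2 fold change of -0.13, and no riser reached 1.5-fold. Abcc5, an exporter of cyclic nucleotides, fell from 66.1 to 39.9 CPM on average (log2 fold change -0.73) and Abcb9, a lysosomal peptide transporter, by 0.64 on the log2 scale. Abcb10, a mitochondrial transporter known from red-cell precursors, fell by 0.60 on the log2 scale, and Abcb4, the bile phospholipid flippase that neighbours Abcb1a and Abcb1b, rose (0.58). Of 9 organic cation and nucleoside carriers tested, 3 rose and 4 fell. Slc22a3, an organic cation carrier able to take up Doxo, fell from a mean of 9.46 to 3.69 CPM (log2 fold change -1.35), with 6.31 CPM on average under NMN (0.77 above Doxo). Slc29a1, an equilibrative nucleoside carrier, went down from 42.1 to 21.9 CPM (-0.94), and averaged 36.0 CPM under NMN (0.72 above Doxo). In the same list, Slco3a1, an organic anion carrier, rose (0.65).

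Of 11 other carbonyl and aldo-keto reductase genes tested, 4 rose and 7 fell with acute Doxo (median -0.32). Hsd11b1, which regenerates corticosterone and also reduces carbonyl compounds, rose from a mean of 10.97 to 80.2 CPM (log2 fold change 2.87), whereas Akr1c14 (-1.66) and Akr1b10 (-0.64) fell as Cbr1 did and Dcxr rose (0.82). Of 19 other flavoenzyme genes tested, 7 rose and 9 fell (median -0.17). Nqo1, the quinone reductase that adds an electron pair and so bypasses the semiquinone, rose 6.42-fold, from a mean of 37.7 to 242 CPM (log2 fold change 2.68, SE 0.27, adjusted p = 2.68e-10 by edgeR), and was lower in Doxo-NMN at 76.5 CPM (-1.66, adjusted p = 7.01e-06 by edgeR). Aox1 (2.13), a molybdenum enzyme related to Xdh, and Txnrd1 (1.47), thioredoxin reductase, also rose, and Nqo2 fell by 0.79 on the log2 scale. Of 11 regulators tested, 5 rose and 3 fell. Nfe2l2, the transcription factor of the antioxidant response, rose (0.44), as did the aryl hydrocarbon receptor partner Arnt (0.42) and the stress-response factor Ybx1 (0.40), while the glucocorticoid receptor Nr3c1 fell by 0.53 on the log2 scale. In Doxo-NMN vs Doxo, where 25.7% of all genes rose and 27.4% fell, the counts of genes that rose and fell were 4 and 2 for other ABC transporters, 3 and 3 for carriers, 5 and 2 for reductases, 6 and 6 for flavoenzymes and 3 and 5 for regulators. No gene of these lists passed in chronic Doxo vs Ctrl.

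**Figure D5:**
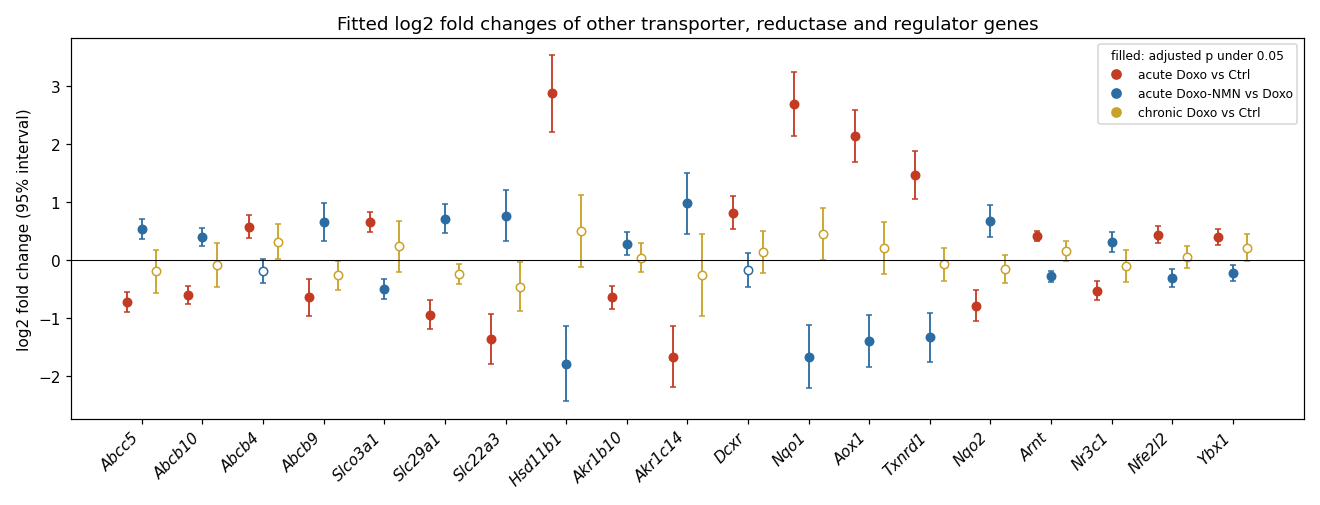
Log2 fold change (vertical axis) with its 95% interval of the genes named from the related lists, for acute Doxo vs Ctrl, acute Doxo-NMN vs Doxo and chronic Doxo vs Ctrl; filled points passed at adjusted p under 0.05 by edgeR. The acute Doxo values run from -1.66 for Akr1c14 to 2.87 for Hsd11b1, and no chronic point is filled.

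Over the 40 acute hearts, the genes whose log2 CPM most resembled each of the 10 were listed, as a description of hearts that share treatment and library. Within the set, Xdh was the gene most like Abcb1a (r = 0.901, and 0.776 after group means were removed). Abcb1a was not among the 3 genes most like Xdh. The closest genes were Tgfbr2 for Abcb1b (r = 0.937, 0.879 within groups), Cdkl1 for Abcc1 (0.92, 0.75), Doc2b for Abcg2 (0.95, 0.856), Psmd13 for Akr1a1 (0.965, 0.92), Mt1 for Por (0.962, 0.906) and Mylip for Xdh (0.949, 0.871). For Cbr1, the gene that fell, they were Dnajc28 (0.945, 0.908), Oma1 and Ky (both 0.94), and for Abcb8 they were Atp5d (0.923, 0.909), Tbrg4 (0.909) and Ndufa8 (0.887). Atp5d and Ndufa8 encode subunits of mitochondrial ATP synthase and complex I. Cbr3 had no gene above 0.61 (Itga8). Por ranked with Mt1, a metallothionein, followed by Il4ra (0.95) and Lcn2 (0.944).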

How the data were processed

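RNA was read as poly(A)-selected, single-end libraries of 150 bases. Per the labels and the study's methods, the authors aligned reads to mm10 with STAR (2.7.3a in the submitters' processing notes) and counted reads per gene with featureCounts 2.0.0; strandedness and annotation release are not given in the sources used here. The deposited values are raw counts per gene, 1 table per study. Of the low counts, 73.6% were even in the acute and 40.3% in the chronic table, so an alternative divided the acute counts by 2. If reads were counted more than once there, which was not tested, fewer reads stand behind the acute totals and the low counts of Cbr3, and the level given for 3 counts is too low; CPM and fold changes do not depend on it where it applied to all genes alike. No 2 libraries agreed within counting noise (chi-square per gene of at least 5.09).

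Counts were filtered with filterByExpr, scaled by TMM and fitted with edgeR 4.0.16 (R 4.3.3), all 3 groups of a study in 1 quasi-likelihood fit over 14240 (acute) or 14960 (chronic) genes, with Benjamini-Hochberg adjustment over all of them. "Rose" and "fell" mean adjusted p under 0.05; a fold cutoff of 1.5 was added in the acute study. CPM are counts over the total of the filtered genes scaled by its TMM factor, and RPKM also divides by exon length (GENCODE vM21, GRCm38). Only the CPM given for 3 counts are over unscaled total counts. Paralog shares were compared by two-sided permutation tests (100000 resamples, or exact below 10 hearts in a group) with SciPy 1.17.1. The scripts were tested on simulated data first. Alternatives were DESeq2 1.42.0, limma 3.58.1 (voom), RLE factors, other filters, each heart left out, the replicate number as a block, and hearts split at 100 CPM of Myl4.

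The members and lists were chosen with earlier results of these data known. The genes named are all 10 members, at most 4 genes from each related list (the smallest adjusted p in acute Doxo vs Ctrl) plus Nqo1 and Slc22a3 (1 carrier is not reported here), and the 3 genes most correlated with each member. Promoter windows are from RefSeq (GRCm38.p6); those of Abcc1, Abcb8 and Xdh were not used here. Replicate numbers were not taken as pairs. Deviations from group means correlated above 0.1 in 18 of 39 same-numbered acute pairs and 5 of 16 chronic pairs. The median correlation was 0.0656 for same-numbered acute pairs, beside -0.0374 for other numbers, and 0.034 beside -0.0188 in the chronic study. A grouping shared by same-numbered hearts was not excluded. Each heart was taken as a separate mouse, and the level given for 3 counts covers counting error only.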

Additional observations from a re-analysis of the deposited data

Results flagged for a closer look

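The Doxo effect differed between the acute and the chronic study, by the interaction term of edgeR, for 7 of the 10 genes. Among all genes tested, it was more positive in the acute study for 11% and more negative for 8.33%. The differences (acute minus chronic, log2) were 1.11 for Abcb1b, 0.99 for Por, 0.72 for Abcb1a, 0.55 for Abcc1, 0.54 for Abcg2, 0.52 for Akr1a1 and -0.61 for Cbr1. Mouse age, supplier, dosing, interval to sampling and laboratory also differed between the studies and cannot be told apart from the regimen.

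A single heart lay far from the others of its group in 10 of 36 groups of 5 or 6 chronic hearts examined. Chance alone marks about 1 in 20 of separate groups. The 36 were genes and shares read in the same hearts, so they are not independent and the count cannot be set against that rate. Chronic Ctrl replicate 1 was the highest of 5 for Abcb1a (35.7 CPM), Abcg2 (26.6 CPM) and Cbr3 (3.49 CPM), the lowest for Abcb8 (60.9 CPM), and the highest for the share of Cbr3 (10.3%). Its summed endothelial marker level, 1743 CPM, was also the highest of the chronic Ctrl group, whose lowest was 1069 CPM, and the part of this in its values was not tested. Chronic Doxo replicate 2 was the highest of 6 for Xdh (427.5 CPM), Akr1a1 (209 CPM) and Abcg2 (34.1 CPM). Its summed endothelial level, 778 CPM, and its summed red-cell level, 16.2 CPM, were the lowest of its group. Chronic Doxo-NMN replicate 6 was the highest of 6 for Cbr1 (35.2 CPM), and replicate 4 for the share of Cbr3 (11.7%).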

How the results depend on the processing

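None of the 30 log2 fold changes of the 10 genes that passed their test turned in sign under any alternative run. Of the 40 that did not pass, 14 did under at least 1 alternative, among them Xdh in chronic Doxo vs Ctrl (0.43, and -0.01 without Doxo replicate 2) and Cbr3 in acute Doxo vs Ctrl (-0.08, and 0.10 in high-Myl4 hearts). Over 560 values under other tools, filters and sample choices, 541 kept their side of the threshold, 15 lost it and 4 gained it (Abcb8 by voom and, with Abcb1b, in the fit of only the compared groups, all in acute Doxo-NMN vs Ctrl, and Xdh by voom for the interaction). With 1 heart left out, 1146 of 1150 kept it, and the other 4 were Abcb8 in Doxo-NMN vs Doxo. Genes called among the 10 ranged with 1 heart left out from 6 to 8 (acute Doxo vs Ctrl), from 2 to 3 (Doxo-NMN vs Doxo) and stayed at 0 in the other comparisons within a study. In the same runs, all genes called ranged from 4052 to 4758 (acute Doxo vs Ctrl), from 2158 to 2986 (acute Doxo-NMN vs Doxo) and from 842 to 1157 (acute Doxo-NMN vs Ctrl). Without the fold cutoff, genes called among the 10 were 9 for Doxo-NMN vs Doxo and 6 for Doxo-NMN vs Ctrl, and all genes called were 9694, 7554 and 3705 in the 3 acute comparisons. For all genes in acute Doxo-NMN vs Ctrl, the count was 1698 with no filter, 647 with at least 10 counts in every heart, 575 in low-Myl4 and 599 in high-Myl4 hearts. In chronic Doxo vs Ctrl it was 24 with DESeq2, 54 with voom, 15 with no filter, 0 with the 10-count minimum and 5 to 11 with 1 heart left out; in chronic Doxo-NMN vs Ctrl it was 26 with voom and 0 with the minimum. For the interaction it was 6995 with voom, where Xdh also passed, and 4604 without acute Doxo replicate 6. In low-Myl4 hearts, the Doxo-NMN minus Doxo share differences, -8.18 points for Abcb1b and -2.50 for Cbr3, no longer passed (adjusted permutation p = 0.0622 and 0.151). The chronic Doxo minus Ctrl share of Abcb1b ranged from 2.75 to 4.62 points with 1 heart left out. The cause of these shifts was not tested. The Myl4 splits also held fewer hearts, which cannot be told apart there from the Myl4 level. No chronic heart was high in Myl4, so that split was not run there.

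With the replicate number as a block, 7, 3 and 0 of the 10 genes were called in the acute comparisons (4242, 2456 and 963 of all genes) and 0 in each chronic one (7, 0 and 4 of all genes); it ended the Abcb8 call in Doxo-NMN vs Doxo (adjusted p = 0.0540 by edgeR) and changed no other call of the 10. The Abcb8 call was also lost in a fit of only the groups compared (0.0659). The labels do not say whether same-numbered hearts belong together.

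Cbr3 rested on 30 to 112 counts per acute and 34 to 86 per chronic heart, which limits what its intervals can show. The groups of 5 and 6 chronic hearts, and single hearts within them, limit the chronic values. Transcripts of Abcb1a and Abcb1b share some stretches of read length, so reads from those stretches cannot be assigned to either gene with certainty.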
